A study of Mus musculus with 6 samples.

Results

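Transglutaminases and peptidylarginine deiminases are the enzymes that modify structural proteins during cornification and hair formation. The 8 genes examined were *Tgm1*, *Tgm2*, *Tgm3*, *Tgm5*, *Padi1*, *Padi2*, *Padi3* and *Padi4*, taken as the rows of the count table whose Ensembl identifiers carry these symbols in GENCODE M21 (GRCm38). They are 8 of the 26579 genes in the table. RNA was sequenced from punch biopsies of the dorsal neck of 3 YAP2-5SA-∆C mice (TG) and 3 wild type littermates (WT), all female and 33 days old. YAP2-5SA-∆C mice carry a transgene for a mildly active mutant of the transcriptional co-activator YAP in basal keratinocytes, which are Keratin5- and Keratin14-positive. The biopsies were whole skin, so follicles, interfollicular epidermis, dermis and underlying muscle were sequenced together, and fewer cells of a type cannot be told apart from less RNA per cell.

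Transglutaminases join the side chains of glutamine and lysine into isopeptide bonds, which makes the cornified envelope of keratinocytes and the sheaths of the hair insoluble. Peptidylarginine deiminases convert arginine to citrulline, which removes positive charges, loosens keratin bundles and prepares filaggrin and trichohyalin for breakdown or cross-linking. In skin the families act in sequence on shared substrates. Trichohyalin of the inner root sheath and hair medulla is deiminated and then cross-linked, and inherited loss of *PADI3*, *TGM3* or trichohyalin causes uncombable hair in humans. Loss of *TGM1* causes lamellar ichthyosis, and loss of *TGM5* causes peeling of the outer epidermis.

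The catalytic cysteine of the transglutaminases lies in a short stretch that is much alike between the genes, and it is shown here because the counts must tell these related genes apart. Each sequence holds 27 coding bases of GRCm38, read 5′ to 3′ along the gene, with the cysteine codon in capitals. The stretch lies at chr14:55709410-55709436 (minus strand, exon 7 of 15) in *Tgm1*, chr2:121070748-121070774 (minus strand, exon 6 of 13) in *Tgm5*, chr2:130029760-130029786 (plus strand, exon 6 of 13) in *Tgm3*, chr2:158131347-158131373 (minus strand, exon 6 of 13) in *Tgm2*, and chr2:130141300-130141326 (plus strand, exon 6 of 13) in the related *Tgm6*.
Tgm1: ccctacggccaaTGCtgggtctttgcc
Tgm5: cgctatgggcaaTGCtgggtctttgct
Tgm3: caatttggccagTGCtgggtctttgct
Tgm2: aagtacgggcagTGCtgggtgtttgca
Tgm6: aaatatggccagTGCtgggtcttcgct
Of the 27 bases, *Tgm3* and *Tgm6* differed at 3, *Tgm1* and *Tgm5* at 4, *Tgm3* and *Tgm5* at 5, and *Tgm1* and *Tgm3* at 6. Over whole transcripts, no stretch as long as a read (75 bases) was shared between any 2 genes of either family, so that no error-free read of this length fits 2 of them. *Padi1* shares 1200 exonic bases (32.0% of its length) with the opposite-strand transcript *Gm13032*, which had 75 counts in all libraries together. *Tgm2* shares 370 exonic bases with *Rprd1b* on the opposite strand, and whether the counting used strand is not given in the sources used here, so the counts of these genes are less certain.

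Total counts per library ranged from 11225705 to 19505036, and the 8 genes had between 83 counts (*Padi1* in TG replicate 2) and 3499 counts (*Padi3* in WT replicate 2). Levels are given as CPM, counts scaled to library size and by TMM (trimmed mean of M-values). A gene was tested if 3 or more libraries reached 1 CPM, which left 15102 genes with all 8 enzymes among them. The endogenous *Yap1* gene had 124.4 to 141.4 CPM in WT and 129.3 to 143.9 CPM in TG, and it is not known whether transgene reads were counted on it. TG replicate 2 stood apart, with a summed level of 9 inner root sheath and medulla markers of 1469 CPM, against 7092 and 8964 CPM in the other TG libraries and 13180 to 16290 CPM in WT. The main fold changes and count ratios that rest on it are therefore given with and without it. Profile distances are given for all 6 libraries only.

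In edgeR's quasi-likelihood test none of the 8 enzymes had an FDR (Benjamini-Hochberg adjusted p over all tested genes) below 0.05, whereas 1.91% of tested genes did (0.464% lower in TG and 1.44% higher). At an unadjusted p of 0.05, 4 of the 8 passed in that test, as did 26.3% of all genes. The likelihood-ratio test of edgeR called 5 enzymes (10.4% of all genes), DESeq2 called 2 (10.5%) and voom called 0 (1.65%). *Tgm3*, *Padi1*, *Padi3* and *Padi4* were lower in every TG library than in every WT library, a pattern that 18.2% of all tested genes showed. *Tgm5* was higher in every TG library, as were 15.5% of all genes, and *Tgm1*, *Tgm2* and *Padi2* overlapped between the genotypes. The median log2 fold change (TG over WT) of the 8 enzymes was -0.65, against -0.01 over all genes tested, and was -0.49 without TG replicate 2.

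**Figure D1:**
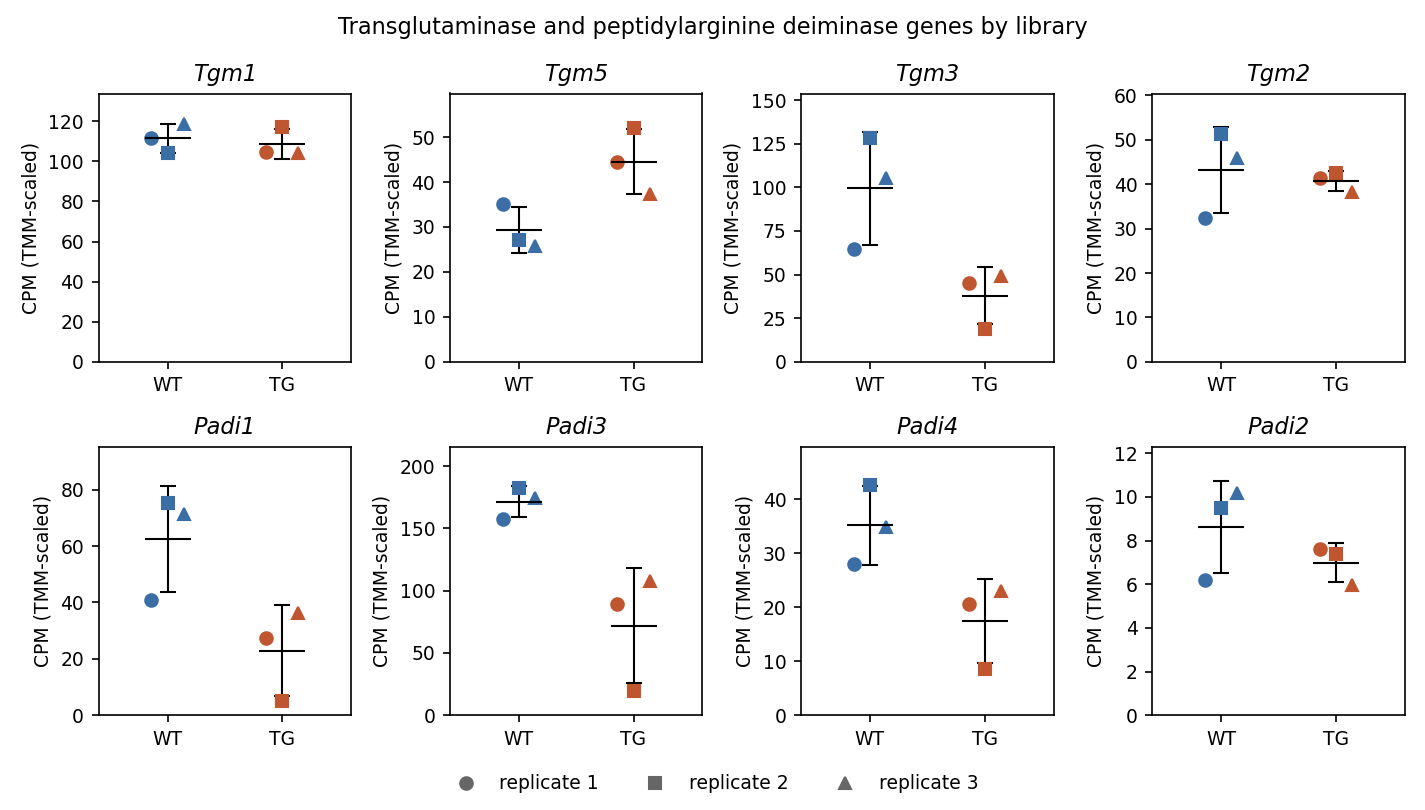
Levels of the 8 enzyme genes in the 6 skin libraries, in TMM-scaled CPM on axes from 0. Points are libraries (WT wild type, TG YAP2-5SA-ΔC, shapes for replicate numbers) and bars are the mean and SD of 3. TG replicate 2 is the lowest of all libraries for *Tgm3*, *Padi1*, *Padi3* and *Padi4*, at 19.1, 4.87, 19.7 and 8.63 CPM, and the highest for *Tgm5*, at 51.9 CPM.

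*Tgm1* (ENSMUSG00000022218, chr14:55700009-55713926, minus strand) encodes the membrane-anchored transglutaminase of the upper epidermis. Its level was 111.5, 104.2 and 118.5 CPM in WT replicates 1 to 3, and 104.6, 117.1 and 103.9 CPM in TG. The genotypes overlapped within a narrow range. The means were 111 ± 7.13 CPM (SD, n = 3) and 108.5 ± 7.41 CPM (SD, n = 3), and the log2 fold change was -0.04 (standard error, SE, 0.08, 95% interval -0.22 to 0.14, edgeR quasi-likelihood FDR 0.782). This was the narrowest interval among the 8 enzymes.

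*Tgm5* (ENSMUSG00000053675, chr2:121046111-121085841, minus strand) encodes a transglutaminase of the suprabasal epidermis. Its level was 35.2, 27.1 and 25.7 CPM in WT, and 44.5, 51.9 and 37.25 CPM in TG. All TG libraries lay above all WT libraries, although WT replicate 1 and TG replicate 3 were close. The log2 fold change was 0.60 (SE 0.16, 95% interval 0.23 to 0.98, edgeR quasi-likelihood FDR 0.0771). Voom gave an FDR of 0.0813. The likelihood-ratio test gave an FDR of 0.0174 and DESeq2 one of 0.00552. Without TG replicate 2 the log2 fold change was 0.49 in the quasi-likelihood fit of edgeR, and the likelihood-ratio test no longer called *Tgm5*.

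*Tgm3* (ENSMUSG00000027401, chr2:130012349-130050399, plus strand) encodes the transglutaminase of the hair follicle and granular layer, which is activated by cleavage. Its level was 64.5, 128.1 and 105.6 CPM in WT, and 45.5, 19.1 and 49.0 CPM in TG. Every TG library lay below the lowest WT library. The means were 99.4 ± 32.25 CPM (SD, n = 3) and 37.9 ± 16.3 CPM (SD, n = 3), a 2.62-fold lower level. The log2 fold change was -1.39 (SE 0.38, 95% interval -2.30 to -0.48, edgeR quasi-likelihood FDR 0.0836). The likelihood-ratio test gave an FDR of 0.000691, DESeq2 one of 0.0471 and voom one of 0.0836. Without TG replicate 2 the log2 fold change was -1.06 (edgeR quasi-likelihood FDR 0.0703).

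*Tgm3* was among the genes the study chose from its edgeR results for quantitative RT-PCR. The paper reports significantly lower *Tgm3* in TG skin by that assay, in mice of the same cohort. The primers place the assay in the transcript. The forward primer matched exon 5 at chr2:130026782-130026800 and the reverse primer exon 6 at chr2:130029691-130029709, the exon that also holds the catalytic cysteine codon shown above.
Tgm3 forward: ccaaatatgtttgccgggt
Tgm3 reverse: cattccaggtccttgggtc
Promoters (250 bases before to 50 bases after the start, RefSeq on GRCm38.p6) were found for 7 of the 8 enzymes. They were searched on both strands for CATTCC, the core recognised by the TEAD partners of YAP, and for the AP-1 motif TGANTCA. The TEAD core was present in 14.7% of 32851 mouse promoters. Of the 7 enzymes, *Tgm3* held it, once before and once after the start, at chr2:130012241-130012262 (91 bases before the start, on the other strand) and chr2:130012354-130012375 (22 bases after). The AP-1 motif was present in 7.81% of promoters and, among the enzymes, in *Padi4* at chr4:140774243-140774265 (minus strand, 54 bases before the start). The matches are shown in capitals within their surroundings, as descriptions of letters only.
Tgm3 before the start: gcactacaGGAATGacctggtg
Tgm3 after the start: atctctgtCATTCCcagaggag
Padi4 before the start: gcaggtgcTGACTCAtgggctcg

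*Tgm2* (ENSMUSG00000037820, chr2:158116402-158146436, minus strand) encodes tissue transglutaminase, which is found in many cell types including endothelium and fibroblasts. Its level was 32.4, 51.2 and 45.95 CPM in WT, and 41.3, 42.45 and 38.2 CPM in TG. The TG libraries lay inside the range of the WT libraries. The log2 fold change was -0.09 (SE 0.16, 95% interval -0.47 to 0.29, edgeR quasi-likelihood FDR 0.758).

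*Tgm3* is an enzyme of the hair follicle and granular layer, and *Tgm1* one of the upper epidermis. The ratio of *Tgm3* to *Tgm1* counts compares them within a library, without any scaling between libraries. It was 0.578, 1.23 and 0.891 in WT, and 0.4345, 0.1635 and 0.472 in TG. All TG ratios were below all WT ratios, by -1.41 on the log2 scale. The two-sided exact permutation test gave p = 0.1, which is the smallest p that 3 libraries against 3 allow, and 0.2 when adjusted over the 2 ratios tested. Without TG replicate 2 the difference was -0.92.

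*Padi3* (ENSMUSG00000025328, chr4:140785365-140810648, minus strand) encodes the deiminase of the hair medulla and inner root sheath and of the upper epidermis. Its level was 157.8, 182.7 and 174.4 CPM in WT, and 88.9, 19.7 and 107.4 CPM in TG. The WT libraries were close to each other, and every TG library was below them. The means were 172 ± 12.7 CPM (SD, n = 3) and 72.0 ± 46.3 CPM (SD, n = 3), and the log2 fold change was -1.25 (SE 0.53, 95% interval -2.50 to -0.01, edgeR quasi-likelihood FDR 0.188). TG replicate 2 held 11.5% of the WT mean, and the mean of the other TG libraries held 57.2%. Without TG replicate 2 the log2 fold change was smaller, at -0.79, and *Padi3* passed the threshold (edgeR quasi-likelihood FDR 0.0152). In that fit of 5 libraries it was the one enzyme called, against 5.46% of all genes, 2.74% as lower and 2.73% as higher.

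*Padi1* (ENSMUSG00000025329, chr4:140812983-140845778, minus strand) encodes a deiminase of all living epidermal layers and of the follicle. Its level was 40.9, 75.3 and 71.2 CPM in WT, and 27.4, 4.87 and 36.1 CPM in TG. The groups did not overlap, with TG replicate 3 just under WT replicate 1. The log2 fold change was -1.45 (SE 0.63, 95% interval -2.94 to 0.03, edgeR quasi-likelihood FDR 0.198). FDR values were 0.0291 by the likelihood-ratio test and 0.273 by DESeq2. TG replicate 2 held 7.80% of the WT mean, the lowest share among the 8 enzymes. Without it the log2 fold change was -0.96.

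*Padi4* (ENSMUSG00000025330, chr4:140745865-140774236, minus strand) encodes the deiminase that enters the nucleus and acts on histones, best known from granulocytes. Its level was 28.0, 42.7 and 34.85 CPM in WT, and 20.65, 8.63 and 23.0 CPM in TG. It too was lower in every TG library. The log2 fold change was -1.01 (SE 0.35, 95% interval -1.83 to -0.19, edgeR quasi-likelihood FDR 0.128). By the likelihood-ratio test of edgeR the FDR was 0.0106, by voom 0.108 and by DESeq2 0.147. Without TG replicate 2 the log2 fold change was -0.67 (edgeR quasi-likelihood FDR 0.0781).

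*Padi2* (ENSMUSG00000028927, chr4:140906344-140952586, plus strand) encodes a widely expressed deiminase of muscle, brain and leukocytes. Its level was 6.20, 9.51 and 10.2 CPM in WT, and 7.60, 7.40 and 5.98 CPM in TG. The groups overlapped at this low level. The log2 fold change was -0.29 (SE 0.20, 95% interval -0.78 to 0.19, edgeR quasi-likelihood FDR 0.394). It ranged from -0.48 (without WT replicate 1) to -0.16 (without WT replicate 3) when 1 library was left out.

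*Padi3* and *Padi1*, which lie next to each other on chromosome 4, were also compared as a ratio. The ratio of *Padi3* to *Padi1* counts was 3.855, 2.43 and 2.45 in WT, and 3.24, 4.04 and 2.97 in TG. The genotypes overlapped, with a difference of 0.25 on the log2 scale (two-sided exact permutation test, p = 0.3, adjusted over the 2 ratios 0.3). It was 0.13 without TG replicate 2 and 0.47 without WT replicate 1.

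In the likelihood-ratio test of edgeR, the 5 enzymes called were *Tgm3*, *Padi1*, *Padi3* and *Padi4* as lower (4.87% of all genes were called lower) and *Tgm5* as higher (5.52%). DESeq2 called *Tgm3* as lower (4.18%) and *Tgm5* as higher (6.35%). When TG replicate 2 was left out of the likelihood-ratio test, *Tgm3*, *Padi1*, *Padi3* and *Padi4* were called (8.35% of all genes, 3.64% as lower and 4.71% as higher). The 5 enzymes whose genotypes did not overlap are therefore those whose call depended on the test.

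**Figure D2:**
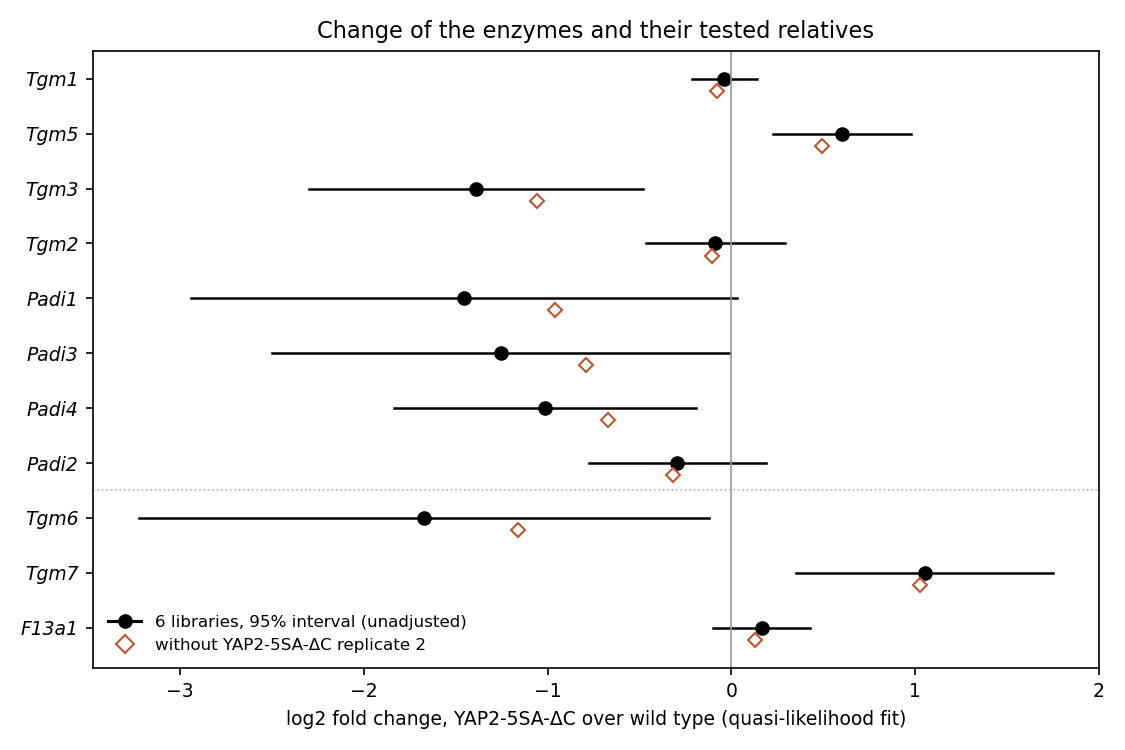
Log2 fold change of each enzyme in YAP2-5SA-ΔC over wild type skin. Filled points are the fit of 6 libraries with its unadjusted 95% interval, and open diamonds the fit without TG replicate 2. *Padi1* moves from -1.45 to -0.96 and *Padi3* from -1.25 to -0.79, while *Tgm1* stays near 0. The 3 genes under the dotted line are relatives outside the set of 8.

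The remaining genes of both families were examined for comparison. *Tgm6*, best known from the nervous system and a neighbour of *Tgm3* on chromosome 2 (ENSMUSG00000027403, chr2:130112416-130154232, plus strand), had 58.0, 92.8 and 78.7 CPM in WT, and 29.5, 4.345 and 38.1 CPM in TG. The groups did not overlap, and TG replicate 2 was again far below the rest. TG lay below WT by a log2 fold change of -1.67 (SE 0.66, edgeR quasi-likelihood FDR 0.164), and by -1.16 (FDR 0.0292) without TG replicate 2. *Tgm7* had only 8 to 33 counts per library and lay above WT by 1.05 on the log2 scale (SE 0.30, edgeR quasi-likelihood FDR 0.0860). *F13a1*, the A chain of coagulation factor XIII that dermal macrophages express, differed by 0.17 on the log2 scale (SE 0.11, edgeR quasi-likelihood FDR 0.385). None of these 3 passed the quasi-likelihood test or voom or DESeq2, 2 had an unadjusted p under 0.05, and the likelihood-ratio test called *Tgm7* as higher and *Tgm6* as lower. *Tgm4* of the prostate, *Epb42* of red cells and *Padi6* of the oocyte were below the filter, with 1 to 8, 1 to 4 and 0 to 2 counts per library.

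Levels of different genes were compared only per kb of exon. In WT skin the order was *Padi3* (49.8 ± 3.69 CPM per kb, SD, n = 3), *Tgm1* (35.2 ± 2.25), *Tgm3* (24.0 ± 7.80), *Padi1* (16.6 ± 5.00), *Tgm2* (9.38 ± 2.11), *Tgm5* (9.30 ± 1.625), *Padi4* (7.28 ± 1.52) and *Padi2* (1.72 ± 0.424). The libraries of neighbours in this order overlapped from *Tgm3* down to *Padi4*. In TG skin *Tgm1* came first (34.3 ± 2.34 CPM per kb, SD, n = 3), followed by *Padi3* (20.9 ± 13.4), *Tgm5* (14.1 ± 2.32), *Tgm3* (9.16 ± 3.95), *Tgm2* (8.82 ± 0.480), *Padi1* (6.075 ± 4.30), *Padi4* (3.61 ± 1.60) and *Padi2* (1.395 ± 0.1765). All neighbours overlapped in TG except *Tgm1* above *Padi3*, and *Padi4* above *Padi2*.

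Summed over the 4 genes, the deiminases had 63.7, 83.8 and 78.8 CPM per kb in WT, and 38.9, 10.3 and 46.75 CPM per kb in TG. The 4 transglutaminases had 69.1, 83.65 and 81.1 CPM per kb in WT, and 67.2, 67.3 and 64.8 CPM per kb in TG. Both sums were lower in TG without overlap, the transglutaminases by a small margin. Within the transglutaminases, *Tgm3* made up 22.6%, 37.0% and 31.5% of the sum in WT, and 16.4%, 6.88% and 18.3% in TG. *Tgm5* made up 16.2%, 10.3% and 10.05% in WT, and 21.01%, 24.4% and 18.2% in TG. A lower share of 1 enzyme raises the shares of the others, so these opposite directions are in part set by arithmetic. The mean shares of *Tgm1* (45.6% in WT, 51.7% in TG) and *Tgm2* (11.9% and 13.3%) were higher in TG as well. *Padi3* was the main deiminase in all libraries, at 55.6% to 71.85% of the deiminase sum.

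**Figure D3:**
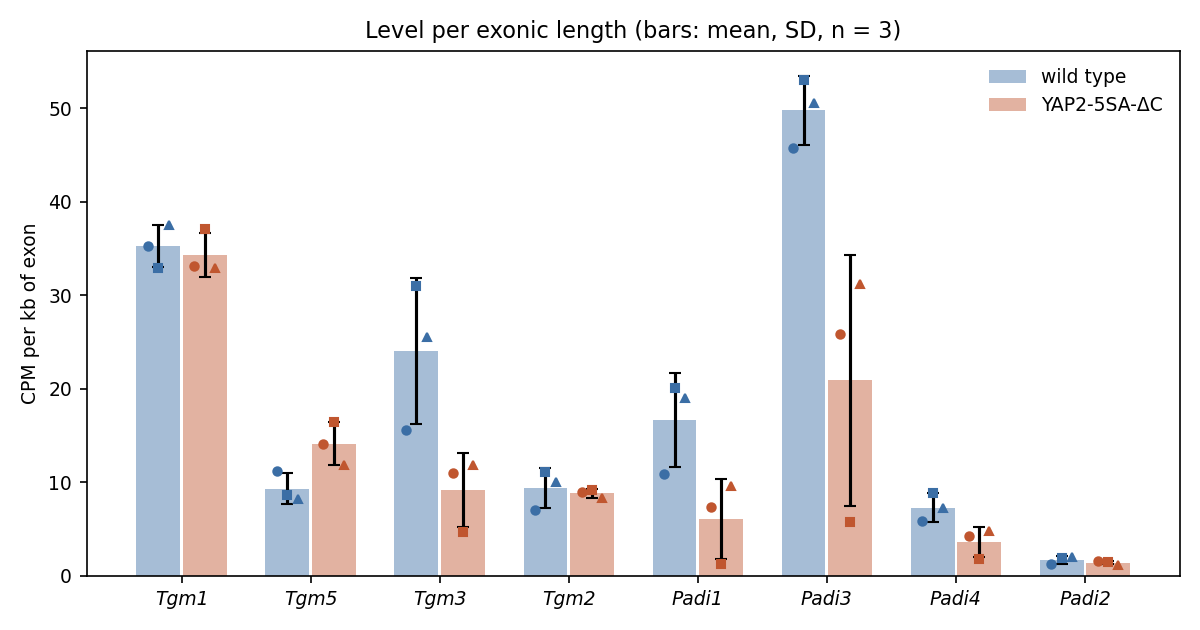
Level of each enzyme per kb of exon (CPM per kb, axis from 0) in wild type and YAP2-5SA-ΔC skin. Bars are means, error bars SD of 3 libraries and points libraries (circle, square and triangle for replicates 1, 2 and 3). *Padi3* is highest in wild type (49.8) and *Tgm1* in YAP2-5SA-ΔC skin (34.3).

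The substrates and cell type markers of these enzymes were measured in the same libraries. Markers of the inner root sheath and medulla (*Tchh*, *Tchhl1* and 7 keratins) were all lower in TG without overlap, as were 18.2% of all genes. Their summed levels were 13180 to 16290 CPM in WT and 1469 to 8964 CPM in TG. Their median log2 fold change was -1.41, or -0.95 without TG replicate 2. None of the 9 passed edgeR's quasi-likelihood test, 7 had an unadjusted p under 0.05, the likelihood-ratio test called 8, and neither voom nor DESeq2 called any. With TG replicate 2 left out, the quasi-likelihood test called 7 as lower. The 3 with the lowest p were *Krt28* (log2 fold change -1.39), *Krt73* (-1.32) and *Krt25* (-1.42), keratins of the inner root sheath, at -0.95, -0.87 and -0.95 without TG replicate 2. The 11 hair shaft keratins showed the same order, from 3134 to 5831 CPM summed in WT and from 135.7 to 1745 CPM in TG, with a median log2 fold change of -2.15, or -1.60 without TG replicate 2. The quasi-likelihood test called none of them, all 11 had an unadjusted p under 0.05, the likelihood-ratio test called 11 and voom and DESeq2 called none, with 10 called as lower by the quasi-likelihood test without TG replicate 2. Suprabasal keratinocyte markers summed to 6518 to 7758 CPM in WT and 8504 to 14060 CPM in TG (median log2 fold change 0.58 over 7 genes, or 0.32 without TG replicate 2). The quasi-likelihood test and voom called none of these, 4 had an unadjusted p under 0.05, the likelihood-ratio test called 3 and DESeq2 called 4, and 2 were called as higher by the quasi-likelihood test without TG replicate 2. The part of these cell populations in the enzyme levels was not tested.

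As a description chosen after the values were seen, enzyme counts were set against keratin counts of the same library. Per 1000 counts of the 7 inner root sheath keratins, *Padi3* had 17.2, 16.1 and 15.9 counts in WT, and 17.4, 19.4 and 18.45 counts in TG. These 6 values lay within a far smaller range than the CPM of *Padi3*, and TG replicate 2 no longer stood apart. *Padi1* had 4.46, 6.62 and 6.48 counts in WT, and 5.38, 4.80 and 6.20 counts in TG, which overlapped. *Tgm3* had 7.03, 11.3 and 9.605 counts in WT, and 8.91, 18.8 and 8.42 counts in TG, also with overlap. For *Tgm3* and *Padi1* the log2 differences were 0.30 and -0.09, and without TG replicate 2 they were -0.08 and 0.003, with the sign turned. *Padi4* was higher on this scale in every TG library, at 4.05, 8.49 and 3.96 counts against 3.055, 3.755 and 3.17 counts in WT. *Tgm1* was higher as well, at 20.5, 115 and 17.8 counts in TG against 12.2, 9.17 and 10.8 counts in WT. The log2 differences were 0.17 for *Padi3*, 0.63 for *Padi4*, 1.71 for *Tgm1*, 1.69 for *Tgm2*, 2.35 for *Tgm5* and 1.47 for *Padi2*, all without overlap. Leaving out TG replicate 2 gave 0.13, 0.27, 0.85, 0.85, 1.43 and 0.62. These keratins were lower in TG, so the scale raises every enzyme of a TG library by the same factor, and a higher value on it shows only that the enzyme and the keratins differed unequally between the genotypes. Against 1000 counts of the 11 hair shaft keratins, which were lower still, *Padi3* had 50.3, 31.3 and 35.85 counts in WT, and 63.4, 145.0 and 61.6 counts in TG, so that TG replicate 2 stood far apart. On this scale every enzyme was higher in TG without overlap. The log2 differences here were 1.11 for *Padi3*, 0.85 for *Padi1* and 1.24 for *Tgm3*, or 0.70, 0.57 and 0.50 without TG replicate 2.

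Per 1000 counts of *Krt1* and *Krt10*, the keratin pair of suprabasal epidermis, *Tgm5* had 9.44, 8.87 and 7.08 counts in WT, and 9.83, 6.79 and 9.20 counts in TG. The genotypes overlapped on this scale, with a log2 difference of 0.02 (0.18 without TG replicate 2), where the CPM of *Tgm5* did not overlap. *Tgm1* had 29.9, 34.1 and 32.6 counts in WT, and 23.1, 15.3 and 25.7 counts in TG, without overlap. Its log2 difference was -0.62, or -0.40 without TG replicate 2. *Padi3* had 42.3, 59.8 and 48.0 counts in WT, and 19.6, 2.57 and 26.55 counts in TG, a log2 difference of -2.17, or -1.12 without TG replicate 2. *Krt1* and *Krt10* had higher mean CPM in TG, so this scale lowers all enzymes of a library by the same factor, and lower values on it were set in part by the keratins. The log2 differences were -2.04 for *Tgm3*, -2.42 for *Padi1* and -1.70 for *Padi4*. Leaving out TG replicate 2 brought these to -1.32, -1.25 and -0.98.

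**Figure D4:**
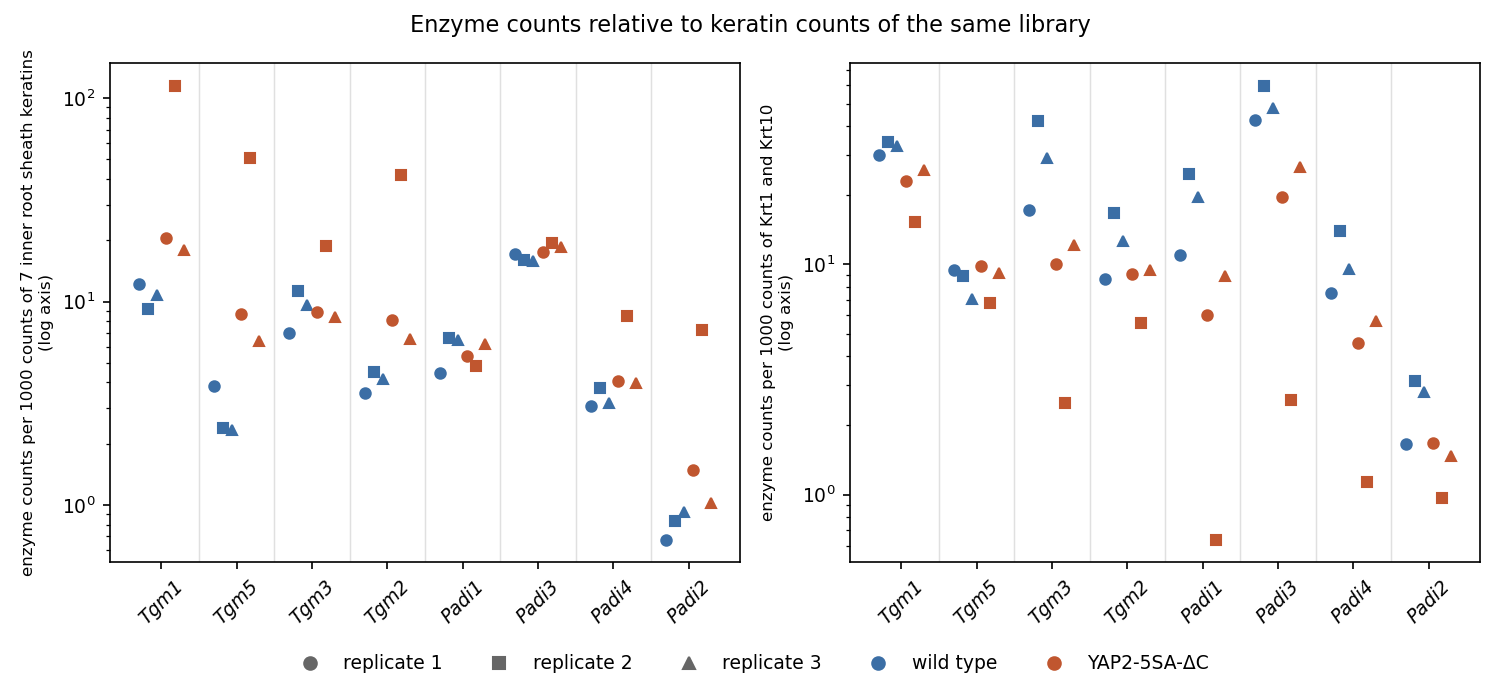
Enzyme counts per 1000 counts of 7 inner root sheath keratins (left) and per 1000 counts of *Krt1* and *Krt10* (right) in each library, on log axes. Colours mark genotype and shapes replicates. *Padi3* spans only 15.9 to 19.4 on the left, and *Tgm5* only 6.79 to 9.83 on the right, while TG replicate 2 stands apart for most other enzymes.

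Of 24 proteins that transglutaminases cross-link into the cornified envelope, 20 were tested. The quasi-likelihood test of edgeR called 2 as higher in TG and 0 as lower. *Sprr1b*, a small proline-rich envelope protein of stressed epidermis, rose from 20.1, 32.3 and 30.9 CPM in WT to 93.9, 103.5 and 113.6 CPM in TG (log2 fold change 1.90, SE 0.18, FDR 0.0194 in edgeR). *S100a11*, a calcium-binding envelope component, rose by a log2 fold change of 0.58 (SE 0.10, FDR 0.0467 in edgeR). *Sprr2h* had a log2 fold change of 1.18 with an FDR of 0.0504 in edgeR, just outside the threshold. *Sprr2d* and *Sprr2e* lay higher as well (1.94 and 2.42, FDR 0.101 and 0.0531 in edgeR). *Sprr1a* went the other way, with 395.2, 546.8 and 590.4 CPM in WT, and 338.2, 182.4 and 417.6 CPM in TG. The genotypes overlapped for *Sprr1a*, with a log2 fold change of -0.71 (FDR 0.187 in edgeR), or -0.42 without TG replicate 2. The main envelope proteins loricrin and involucrin overlapped between the genotypes, with log2 fold changes of 0.42 for *Lor* (FDR 0.499 in edgeR, and -0.01 without TG replicate 2) and 0.08 for *Ivl* (FDR 0.732 in edgeR). The likelihood-ratio test and DESeq2 called 8 envelope genes as higher and voom 1, the quasi-likelihood test without TG replicate 2 called 4 as higher, and the median log2 fold change of the 20 was 0.28, or 0.05 without TG replicate 2.

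Of 7 proteins known to be citrullinated in skin, 6 were tested, and they lay on both sides of zero. *Tchh*, trichohyalin, had 3753, 4393 and 3977 CPM in WT, and 1824, 430.6 and 2899 CPM in TG, with a log2 fold change of -1.23 (FDR 0.225 in edgeR). *S100a3*, a hair cuticle protein that *Padi3* deiminates, had 419.6, 528.1 and 506.4 CPM in WT, and 205.9, 31.1 and 202.6 CPM in TG, with a log2 fold change of -1.73 (FDR 0.136 in edgeR). Both were lower in every TG library, and both were lowest in TG replicate 2, as *Padi3* was. The epidermal substrates were on the other side, with log2 fold changes of 0.72 for *Krt1* (FDR 0.0887 in edgeR), 0.62 for *Hrnr* (FDR 0.136) and 0.58 for *Krt10* (FDR 0.245). When TG replicate 2 was left out, the log2 fold changes were 0.46 for *Krt1*, 0.35 for *Hrnr*, 0.22 for *Krt10*, -0.76 for *Tchh* and -1.23 for *S100a3*. None of the 6 passed the quasi-likelihood test or voom, 3 had an unadjusted p under 0.05, the likelihood-ratio test called 2 as higher and 1 as lower, and DESeq2 called 2 as higher. The quasi-likelihood test without TG replicate 2 called *Krt1* as higher and *S100a3* as lower. Filaggrin itself was not analysed here.

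Among 8 proteases and inhibitors that act on profilaggrin or filaggrin, *St14*, the membrane protease matriptase, fell in TG, from 119.0, 129.9 and 121.9 CPM to 91.0, 75.2 and 92.4 CPM (log2 fold change -0.52, SE 0.09, FDR 0.0451 in edgeR). It was the one gene of this list that passed the quasi-likelihood test. Of the others, 4 with low p lay higher in every TG library without passing, with log2 fold changes of 0.42 for *Blmh*, bleomycin hydrolase (FDR 0.0618 in edgeR), 0.53 for *Asprv1*, a profilaggrin-cleaving protease (FDR 0.0657), 0.59 for *Klk5*, a kallikrein protease (FDR 0.0723), and 0.34 for *Casp14*, the caspase of cornification (FDR 0.0758). In all, 6 of the 8 were higher and 1 lower in TG without overlap, against 15.5% and 18.2% of all genes. The likelihood-ratio test called 3 as higher and 1 as lower (5.52% and 4.87% of all genes). DESeq2 called 5 as higher and 1 as lower (6.35% and 4.18%), and voom called 1 as lower (0.417%). Leaving out TG replicate 2, the quasi-likelihood test called 2 as higher and 1 as lower (2.73% and 2.74%).

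Other cell types that carry these enzymes were checked by their markers. *Krt14*, a keratin of the basal cells that express the transgene, rose from 1665, 1644 and 1626 CPM in WT to 2840, 3400 and 3304 CPM in TG (log2 fold change 0.95, FDR 0.0300 in edgeR). It was 1 of 7 basal markers to pass the quasi-likelihood test, and 2 passed without TG replicate 2. Voom called 1 of the 7 as higher, the likelihood-ratio test 3 and DESeq2 5. Granulocytes express *Padi4*, and of 4 tested neutrophil markers the receptor *Cxcr2* rose (log2 fold change 1.05, FDR 0.0401 in edgeR). *Csf3r*, also a neutrophil receptor, was higher in every TG library (log2 fold change 1.53, FDR 0.0531 in edgeR), and both were called without TG replicate 2. Of the 4, voom called 1 as higher, and the likelihood-ratio test and DESeq2 called 2 each. The 10 neutrophil markers in the table summed to 16.5 to 52.2 CPM in WT and 37.0 to 85.1 CPM in TG, and the granule genes *Mpo*, *Elane*, *Ngp* and *Ltf* had at most 11 counts in all libraries together. The summed neutrophil levels overlapped between the genotypes, with 20.6 CPM of *S100a9* in WT replicate 3, the WT library with the highest sum, and their part in the level of *Padi4* was not tested. Of 9 macrophage markers, whose cells express *F13a1*, *Mrc1* and *Csf1r* rose (log2 fold change 0.54 for each, FDR 0.0341 and 0.0456 in edgeR). All 9 were higher in TG without overlap, as were 15.5% of all genes. Without TG replicate 2 the quasi-likelihood test called 4 of them. With all libraries voom called 2, the likelihood-ratio test 4 and DESeq2 6. Of 7 endothelial markers, whose cells express *Tgm2*, none passed in any of the 4 tests, and 3 had an unadjusted p under 0.05 in the quasi-likelihood test (median log2 fold change 0.26). The 5 fibroblast markers had a median log2 fold change of 0.25, with 2 at an unadjusted p under 0.05, 1 called by DESeq2 and none by the other tests. The 8 skeletal muscle markers varied between libraries of 1 genotype, from 1438 to 6956 CPM summed in WT and from 1373 to 3529 CPM in TG. The genotypes overlapped, and the median log2 fold change was -1.10, with all 8 below 0. Its part in the enzyme levels was not tested. WT replicate 1 was the lowest WT library for the muscle, the inner root sheath and the hair shaft markers, and for *Tgm2*, *Tgm3* and all 4 deiminases. No muscle marker passed any of the 4 tests, and none had an unadjusted p under 0.05 in the quasi-likelihood test.

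The tested genes closest to each enzyme in profile were found by the root mean square difference of centred log2 CPM over the 6 libraries, where a smaller value means a more similar profile. The libraries are shared, so this is a description. *Padi3* was closest to *Krt35* (0.0698), a hair shaft keratin, and *Krt73* (0.0706), an inner root sheath keratin, followed by *Ly6g6d* (0.0757). *Tgm3* was closest to *Capn12* (0.119), *Fxyd4* (0.125) and *Stra6* (0.126). *Padi1* was closest to *Prr9* (0.130), *S100a7a* (0.134) and *Crnn* (0.144). *Padi4* was closest to *Prr5l* (0.0601), *Ass1* (0.0866) and *Slc25a37* (0.0882), and *Tgm5* to *Adgrb2* (0.0543), *Psapl1* (0.0705) and *Pde1b* (0.0707). *Tgm1*, *Tgm2* and *Padi2* varied little between libraries. The closest to *Tgm1* were *Fam117b* (0.0181), *Bcor* (0.0198) and *Rnaseh1* (0.0214), those to *Tgm2* were *Irf4* (0.0331), *Opcml* (0.0437) and *Gatm* (0.0489), and those to *Padi2* included *Alpk2* (0.0687) and *Wfs1* (0.0759). The measure favours genes that vary little, so it is read against the root mean square of each enzyme's own centred log2 CPM, which was 1.31 for *Padi1*, 1.11 for *Padi3*, 0.89 for *Tgm3*, 0.73 for *Padi4*, 0.36 for *Tgm5*, 0.28 for *Padi2*, 0.21 for *Tgm2* and 0.079 for *Tgm1*. Among the enzymes, the smallest difference was 0.146, between *Tgm2* and *Padi2*. *Tgm3* and *Padi4* differed by 0.215, *Tgm1* and *Tgm2* by 0.222, *Tgm1* and *Padi2* by 0.268, and *Padi1* and *Padi3* by 0.28.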

How the data were processed

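Reads were mapped by the authors to GRCm38 in Tophat2 (2.0.12 per the labels), which calls Bowtie2 (2.1.0), and HTSeq-count then counted those with a unique position. The deposited values are these raw counts for the 6 libraries. The strand setting and annotation release are not given in the sources used here, and a total RNA kit is named in the labels where the study's methods describe mRNA libraries.

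Genes that reached 1 CPM in 3 or more samples were scaled by TMM and tested in edgeR 4.0.16 (R 4.3.3) by quasi-likelihood, with no term other than genotype and Benjamini-Hochberg adjustment over all 15102 genes. The standard error is the size of the log2 fold change divided by the square root of F. The likelihood-ratio test and voom (limma 3.58.1), which the study's methods use, and DESeq2 1.42.0 were alternatives, with other scalings, filters, a replicate block and each library left out. On simulated counts the quasi-likelihood test recovered 75.5% of 200 genes changed by 1 on the log2 scale, with 10.65% false calls. The likelihood-ratio test recovered 88% with 25.1% false calls, and voom 73.5% with 12.0%. The simulated counts varied independently, with no library that stood apart, so these rates may not carry over to these libraries. Ratios used a pseudocount of 0.5. Gene models were those of GENCODE M21, in which 558 identifiers of the table are absent, and promoters those of RefSeq. No source says that replicate numbers mark shared litters, and p-values measure only the spread between these samples.

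Named genes were all 8 enzymes, their relatives, genes drawn from up to 3 of lowest p in each list and from preset substrates, and the 3 closest profiles of each enzyme, of which 1 is not reported here. The members and lists were chosen with earlier results of these data known. The RT-PCR, cell line and protein experiments were not analysed here.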

Additional observations from a re-analysis of the deposited data

How the results depend on the processing

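The number of genes past the threshold was 288 in the quasi-likelihood test and rose to 1568 in the likelihood-ratio test, 1590 in DESeq2 and 497 without a count filter. Other scalings, leaving out mitochondrial genes and a filter of 10 counts in every sample gave 306 to 416 genes and 0 enzymes. The number of genes was 0 to 817 when 1 library was left out and 1248 in the likelihood-ratio test without TG replicate 2, a fit chosen after seeing the data. Leaving out WT replicate 2, WT replicate 3 or TG replicate 3 gave 0 genes (2726, 2844 and 3692 at an unadjusted p under 0.05), TG replicate 1 gave 83, WT replicate 1 gave 142, and TG replicate 2 gave 817. The number of enzymes called was 5 in the likelihood-ratio test, 2 in DESeq2, 4 in the likelihood-ratio test without TG replicate 2, and 0 to 1 when 1 library was left out, the 1 being *Padi3* without TG replicate 2. With the replicate number as a block, 0 genes and 0 enzymes passed (2949 genes and 4 enzymes at an unadjusted p under 0.05). The deviations of same-numbered libraries from their group means correlated at -0.33, -0.23 and -0.05. With so few libraries this cannot decide whether the numbers pair the samples. When 1 library was left out, the sign of log2 fold changes reversed for *Tgm1* (range -0.084 to 0.017, above 0 without WT replicate 3 or TG replicate 1), *Tgm2* (-0.25 to 0.054, above 0 without WT replicate 2), *Lor* (-0.014 to 0.71, below 0 without TG replicate 2) and *Ivl* (-0.028 to 0.17, below 0 without WT replicate 1 or TG replicate 2). The other 6 enzymes kept their direction in all alternatives. In the likelihood-ratio test without TG replicate 2, *Lor* was at -0.014 and *Ivl* at -0.024. The causes were not tested. No scaling moved the median of all genes by more than 0.1. Low counts limit *Tgm7*.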
